A study of Mus musculus with 4 samples.

Results

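Genes that mark endothelium and early blood were followed in mouse embryonic stem cells that express the leukaemia fusion NUP98-HOXA9. The 9 genes are Cdh5, Tek, Kdr, Pecam1, Tal1, Etv2, Cd34, Sox18 and Srgn, found by symbol among the 55401 gene identifiers that each table lists. Of these, 8 were chosen as markers of the lineages and serglycin (Srgn) was chosen by its rise in expression, in fusion over wild-type libraries, with the values of all 9 in that comparison already known. Their fold changes and calls in that comparison are therefore given as a description and are no independent evidence. The rise of Srgn is given without its p-value.

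There were 4 libraries, all of EB3 mouse embryonic stem cells or cells derived from them, kept on gelatin with serum and LIF, the cytokine that holds such cells undifferentiated. EB3-derived cells with NUP98-HOXA9 gave 2 libraries (replicates 1 and 2), EB3-derived cells with an empty vector gave 1, and the parental EB3 line gave 1. The genotype of both controls is given as wild type, and they form the wild-type group (n = 2). The labels do not give the promoter that drives the fusion, or say whether its libraries are separate clones or cultures, so the spread behind each p-value is that between the deposited samples and may be technical. The fusion joins the repeat-rich part of the nucleoporin NUP98 to the DNA-binding homeodomain of HOXA9. Hoxa9 stood at 190 and 127 CPM in the fusion libraries and at 0 in both wild-type libraries, and Nup98 at 310 and 296 CPM in the fusion libraries, against 216 CPM in the parental and 218 CPM in the empty-vector library. CPM is the read count scaled to library size by TMM factors. Depth was 19021386 to 21151729 estimated counts a library.

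Blood and endothelium arise in the embryo from shared mesodermal progenitors. In these cells the ETS factor ETV2 and the basic helix-loop-helix factor TAL1 act early. The VEGF-A receptor VEGFR2 (from Kdr) and, later, the angiopoietin receptor TIE2 (from Tek) carry growth signals, and VE-cadherin (from Cdh5) and PECAM-1 join endothelial cells to each other. PECAM-1 is also known on undifferentiated mouse embryonic stem cells. Serglycin is a small proteoglycan that packs proteins into the secretory granules of blood cells, and endothelial cells make it too.

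The genes did not move as a group. Of the 9, Srgn and Cdh5 were higher and Tek was lower in fusion cells at an adjusted p under 0.05 (edgeR's quasi-likelihood test, Benjamini-Hochberg over 16511 genes), where 3.42% of all genes tested passed in either direction. Pecam1, Kdr, Tal1, Etv2, Cd34 and Sox18 did not pass. The median log2 fold change of the 9 was -0.22, against 0.0 for all genes tested. All 9 passed the filter on low counts, but Srgn and Cdh5 did so through the fusion libraries alone and so had to be higher there. Tal1 passed it through the wild-type libraries alone and so had to be lower in fusion cells. The fusion libraries lay both above or both below the wild-type libraries for 4 genes, namely Srgn and Cdh5 (above) and Tek and Tal1 (below); 51.3% of all genes tested did the same.

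**Figure D1:**
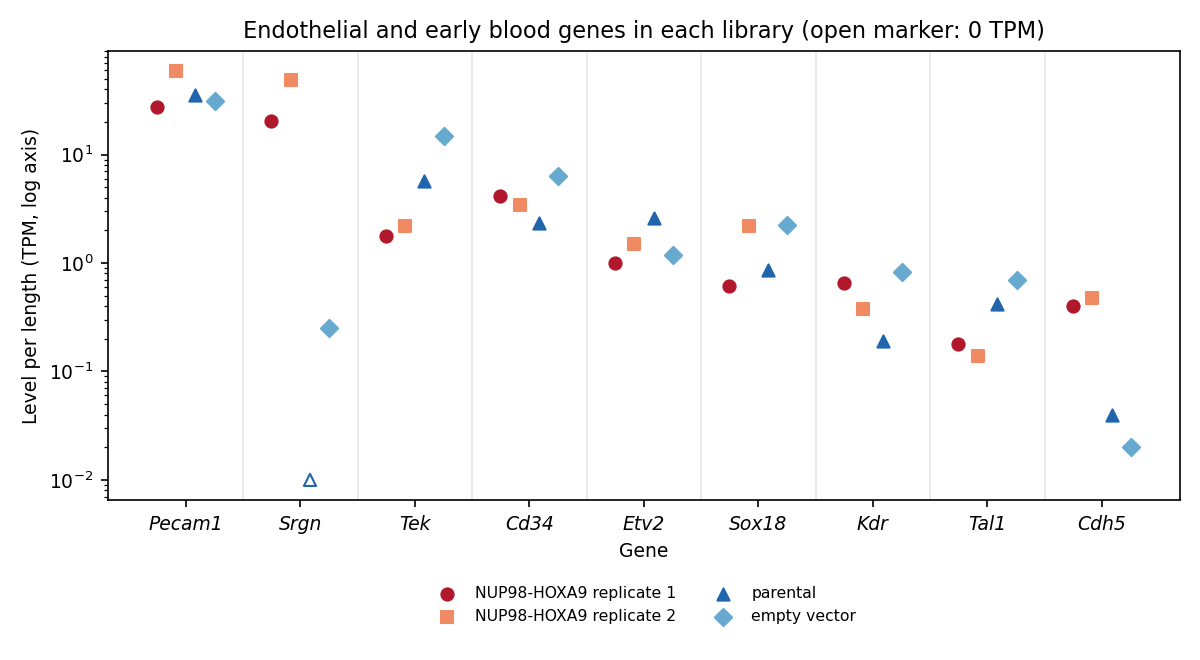
Level per transcript length (TPM, log axis) of each of the 9 genes in each library, ordered by mean level; circles and squares are the fusion libraries, triangles the parental and diamonds the empty-vector library, and an open marker is 0 TPM. Srgn lies at 20.3 and 48.6 TPM in the fusion libraries, against 0 TPM in the parental and 0.25 TPM in the empty-vector library.

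The 5′ flanks of Srgn and Tek are shown because they are the genes past the threshold that have an entry in the RefSeq table, and ETS factors such as ETV2 are known to act on many endothelial and blood promoters. Each window runs from 250 bases before to 50 bases after a RefSeq start site in build GRCm38.p6, and capitals mark the ETS core GGAA on either strand (TTCC on the other). Srgn has 2 start sites in that table.
Srgn, upstream start, chr10:62527396-62527695, minus strand: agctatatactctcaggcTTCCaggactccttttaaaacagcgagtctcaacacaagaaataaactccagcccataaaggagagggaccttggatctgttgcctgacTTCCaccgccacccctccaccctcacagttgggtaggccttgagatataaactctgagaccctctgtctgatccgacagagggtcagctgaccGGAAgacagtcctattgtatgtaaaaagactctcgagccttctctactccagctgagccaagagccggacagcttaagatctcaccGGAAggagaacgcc
Srgn, downstream start, chr10:62507708-62508007, minus strand: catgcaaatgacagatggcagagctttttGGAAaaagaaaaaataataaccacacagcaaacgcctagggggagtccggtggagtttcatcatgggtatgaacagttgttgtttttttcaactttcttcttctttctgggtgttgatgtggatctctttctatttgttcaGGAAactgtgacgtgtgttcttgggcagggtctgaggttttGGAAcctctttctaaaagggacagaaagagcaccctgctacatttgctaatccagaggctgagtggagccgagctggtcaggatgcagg
Tek, chr4:94739039-94739338, plus strand: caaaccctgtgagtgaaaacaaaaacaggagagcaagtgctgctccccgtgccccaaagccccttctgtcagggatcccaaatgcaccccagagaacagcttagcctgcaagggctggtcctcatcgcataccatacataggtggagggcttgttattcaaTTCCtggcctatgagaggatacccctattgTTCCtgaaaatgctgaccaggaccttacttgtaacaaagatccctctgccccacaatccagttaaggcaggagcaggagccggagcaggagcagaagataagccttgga

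The upstream Srgn window held 4 ETS cores and the downstream window 3, and the Tek window held 2. The core is in 96.0% of 32851 RefSeq promoter windows of the same length, with a median of 3 matches, so these counts are ordinary. Of the other members with an entry, Etv2 had 11 matches, Kdr and Cd34 had 5 each, and Tal1 had 4 at each of its 2 starts. The E-box CANNTG, the kind of sequence that TAL1 dimers bind, occurred 3 times at the upstream and 4 times at the downstream Srgn start. It occurred 2 times at Tek. The E-box is in 72.3% of all windows, with a median of 1 match, so these counts lie above the median. The PBX-HOXA9 sequence TGATTTAT, read on both strands, was in no window of these 6 genes and is in 0.977% of all windows. A match or its lack describes these letters only. Cdh5, Pecam1 and Sox18 have no printed window.

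Srgn (ENSMUSG00000020077, chr10:62493833-62527451, GRCm38, minus strand) was near silent in wild-type cells and well expressed in fusion cells. It had 194 and 529 counts in fusion replicates 1 and 2, against 0 in the parental and 2 in the empty-vector library. At 20.3 and 48.6 TPM it was the second most abundant of the 9 genes in fusion cells, after Pecam1. The ratio of fusion to wild type was 328 (95% exact binomial interval 90.6 to 2717, which covers counting error only). Against the empty vector alone the ratio was 163 (interval 44.9 to 1346), and against the parental line, which had 0 counts, the lower limit of the same interval was 89.6. The fusion libraries themselves differed, with replicate 2 at 2.48 times replicate 1 (interval 2.1 to 2.94).

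The mean transcript length that the authors' quantification assigned to Srgn was 781 bases in fusion replicate 1 and 830 bases in replicate 2. Annotated Srgn transcripts run from 346 to 1727 bases and start at both sites shown above, so a mean length in this range does not say which start was used. The nearest tested genes on chromosome 10 did not pass. Vps26a, 7028 bases away, stood at 60.3 and 86 CPM in the fusion libraries, against 117 CPM in the parental and 132 CPM in the empty-vector library (log2 -0.77, SE 0.22, adjusted p = 0.114, edgeR). Kif1bp, 11175 bases away on the other side, had a log2 fold change of 0.23 (SE 0.24, adjusted p = 0.666, edgeR).

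Genes of the granules in which serglycin is known to work were nearly absent. Of 16 such genes, 2 had enough counts to be tested, and neither passed (edgeR; both had an unadjusted p under 0.05, and DESeq2 called 0). Of all 16511 genes tested, 3314 had an unadjusted p under 0.05 and 3.42% passed (edgeR), and DESeq2 called 7.73% of all genes. The mast cell and cytotoxic granule genes Cpa3, Mcpt4, Gzma and Gzmb and the platelet gene Pf4 had 0 counts in all 4 libraries; they were named after their values were seen. Prtn3, a neutrophil granule protease, stood at 0.902 and 0.638 CPM in the fusion libraries, against 0.156 CPM in the parental and 0.159 CPM in the empty-vector library (adjusted p = 0.107, edgeR). It had enough counts to be tested only in fusion cells and so had to be higher there. Hdc, the histamine-forming enzyme of mast cells, stood at 0.902 and 2.28 CPM in the fusion libraries, against 0.573 CPM in the parental and 0.583 CPM in the empty-vector library (adjusted p = 0.246, edgeR). Of 19 tested enzymes that build chondroitin and heparan sulfate chains, the kind of sugar chain that serglycin carries, none passed (edgeR; 3 had an unadjusted p under 0.05, and DESeq2 called 1), and their median log2 fold change was 0.33. The most abundant of them, Hs6st1 and Ext1, had log2 fold changes of 0.09 (SE 0.17) and -0.39 (SE 0.2).

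Cdh5 (ENSMUSG00000031871, chr8:104101625-104144511, plus strand), the VE-cadherin gene, was higher in fusion cells but stayed very low. It had 21 and 27 counts in fusion replicates 1 and 2, against 2 in the parental and 1 in the empty-vector library. These counts are 0.4 and 0.48 TPM in the fusion libraries, against 0.04 TPM in the parental and 0.02 TPM in the empty-vector library. Only 1.17% of the genes tested had a lower mean TPM. Cdh5 had enough counts to be tested only in fusion cells and so had to be higher there. The ratio of fusion to wild type was 14.5 (95% exact binomial interval 4.69 to 73), and the log2 fold change 3.76 (SE 0.68, adjusted p = 0.0378, edgeR). The call did not hold with any library left out: the adjusted p was 0.175 without fusion replicate 1, 0.127 without fusion replicate 2, 0.0987 without the parental and 0.141 without the empty-vector library, and it was 0.0601 with DESeq2, which called 7.73% of all genes. The nearest tested genes on chromosome 8 were Tk2, 82174 bases away, with a log2 fold change of -0.18 (SE 0.3, adjusted p = 0.803, edgeR), and on the other side Gm8730, 1235827 bases away, with one of -0.17 (SE 0.18, adjusted p = 0.667, edgeR).

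Tek (ENSMUSG00000006386, chr4:94739289-94874976, plus strand), the angiopoietin receptor gene, was lower in fusion cells. It stood at 5.26 and 6.38 CPM in fusion replicates 1 and 2, against 17.6 CPM in the parental and 46 CPM in the empty-vector library. The log2 fold change was -2.45 (SE 0.47, adjusted p = 0.0429, edgeR), and both fusion libraries lay below both controls. The controls differed by almost as much as the fusion libraries fell below the parental line: the empty vector stood at 2.61 times the parental line (95% exact binomial interval 2.3 to 2.97), and the fusion libraries at 0.332 times the parental line (interval 0.281 to 0.393) and 0.127 times the empty vector (interval 0.11 to 0.147). In a fit with each control as its own group, Tek had a log2 fold change of -2.99 against the empty vector (SE 0.34, adjusted p = 0.00569, edgeR) and of -1.6 against the parental line (SE 0.34, adjusted p = 0.0503, edgeR). In that fit 1.55% of genes passed against the empty vector and 1.81% against the parental line, and the lone control library was assumed to vary like the fusion pair. The adjusted p was 0.209 without fusion replicate 1, 0.117 without fusion replicate 2, 0.0012 without the parental and 0.0573 without the empty-vector library.

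The transcript mix assigned to Tek also set the parental library apart. The mean Tek transcript length was 4482 and 4553 bases in the fusion libraries, against 4227 bases in the parental and 4549 bases in the empty-vector library. The annotation holds full-length Tek transcripts of 4176, 4549 and 4654 bases, and the parental mean lay nearest the shortest of these. There is 1 library of each control, and the difference has no replicate check. The genes on either side of Tek did not pass, with log2 fold changes of -0.2 for Ift74 (SE 0.24, adjusted p = 0.719, edgeR) and 0.0 for Gm12693 (SE 0.4, adjusted p = 0.999, edgeR). The angiopoietin genes Angpt1 and Angpt2, whose products bind TIE2, had 2 and 3 counts and 2 and 4 counts in the fusion libraries; in the wild-type libraries Angpt1 had 0 and 0, and Angpt2 had 2 in the parental and 7 in the empty-vector library. They were named after their values were seen and were too low to be tested.

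**Figure D2:**
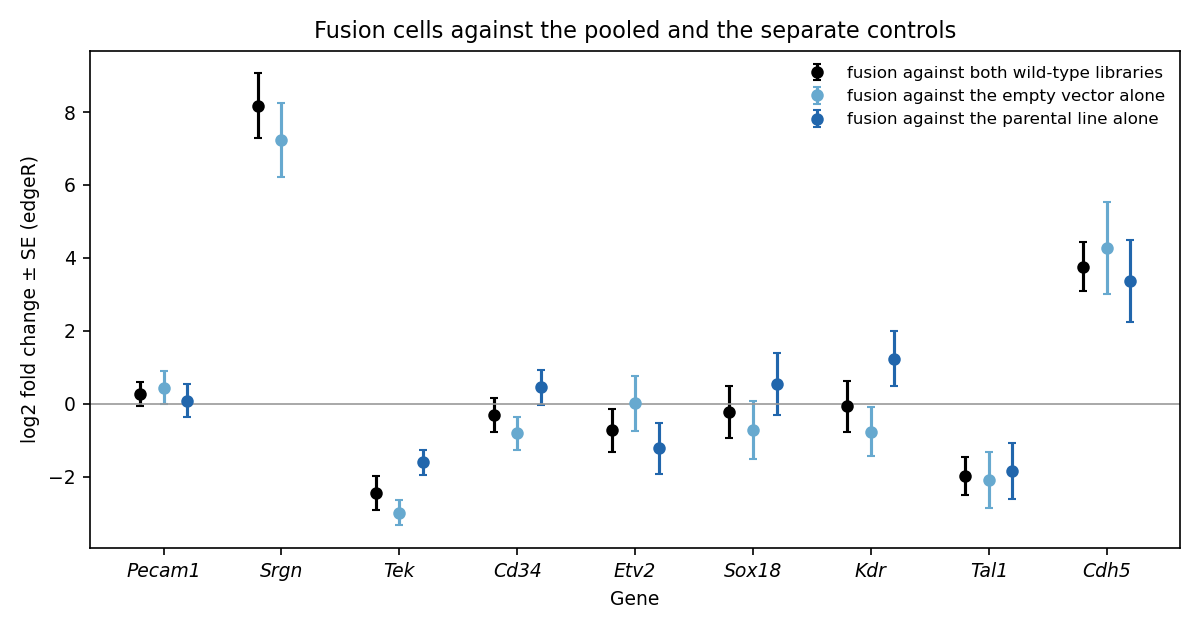
Fitted log2 fold changes with their SE for the 9 genes, for the fusion libraries against both wild-type libraries (black), the empty vector alone (light blue) and the parental line alone (dark blue). The 3 comparisons share the fusion libraries; Srgn is left out against the parental line, where it had 0 counts, and Kdr lies at -0.76 against the empty vector and at 1.24 against the parental line.

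Tal1 (ENSMUSG00000028717, chr4:115056426-115071755), needed for the formation of all blood lineages, had few reads. It had 7 and 8 counts in fusion replicates 1 and 2, against 25 in the parental and 29 in the empty-vector library. The groups did not overlap, but the gene did not pass (log2 -1.97, SE 0.52, adjusted p = 0.0924, edgeR). It had enough counts to be tested only in wild-type cells and so had to be lower in fusion cells. The ratio of fusion to wild type was 0.252 (95% exact binomial interval 0.132 to 0.454). Etv2 (ENSMUSG00000006311, chr7:30633616-30635852) had 13 and 21 counts in the fusion libraries, against 36 in the parental and 15 in the empty-vector library. Its groups overlapped (log2 -0.72, SE 0.59, adjusted p = 0.573, edgeR). Sox18 (ENSMUSG00000046470, chr2:181669836-181671640), a SoxF factor of endothelium, had 13 and 49 counts in the fusion libraries, against 19 in the parental and 45 in the empty-vector library (log2 -0.22, SE 0.71, adjusted p = 0.91, edgeR). Each group held a low and a high library, 3.43-fold apart between the fusion libraries and 2.41-fold apart between the controls.

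Kdr (ENSMUSG00000062960, chr5:75932827-75978458), which encodes VEGFR2, had 52 and 30 counts in fusion replicates 1 and 2, against 16 in the parental and 63 in the empty-vector library. The fusion libraries lay between the controls (log2 -0.07, SE 0.7, adjusted p = 0.969, edgeR). Cd34 (ENSMUSG00000016494, chr1:194938819-194961279), the sialomucin of blood progenitors and vessel lining, had the same arrangement. It stood at 6.42 and 5.15 CPM in the fusion libraries, against 4.22 CPM in the parental and 10.1 CPM in the empty-vector library (log2 -0.31, SE 0.47, adjusted p = 0.781, edgeR). Pecam1 (ENSMUSG00000020717, chr11:106654217-106750628) was the most abundant of the 9 in every library. It stood at 58 and 119 CPM in the fusion libraries, against 82.6 CPM in the parental and 65.1 CPM in the empty-vector library (log2 0.26, SE 0.33, adjusted p = 0.734, edgeR). The fusion libraries held both its lowest and its highest value, 2.05-fold apart. A p that misses the threshold does not show that these 6 genes were unaltered.

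Much of the variation of these genes lay between the control libraries, a comparison that did not enter their choice. With at least 2-fold counted as apart (log2 CPM with a prior count of 2), 6 of the 9 genes differed between the empty-vector and the parental library, against 9.95% of all genes tested. Tek, Kdr, Cd34 and Sox18 were higher with the empty vector, at 2.61, 4.01, 2.4 and 2.41 times the parental line. Etv2 was lower, at 0.424 times (95% exact binomial interval 0.216 to 0.795), and Srgn differed only by 2 counts against 0. Between the fusion libraries, Srgn, Pecam1 and Sox18 were at least 2-fold apart, all higher in replicate 2, against 10.2% of all genes tested. Each of these comparisons is of single libraries and has no replicate check, and genes with few counts differ more often through counting alone.

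**Figure D3:**
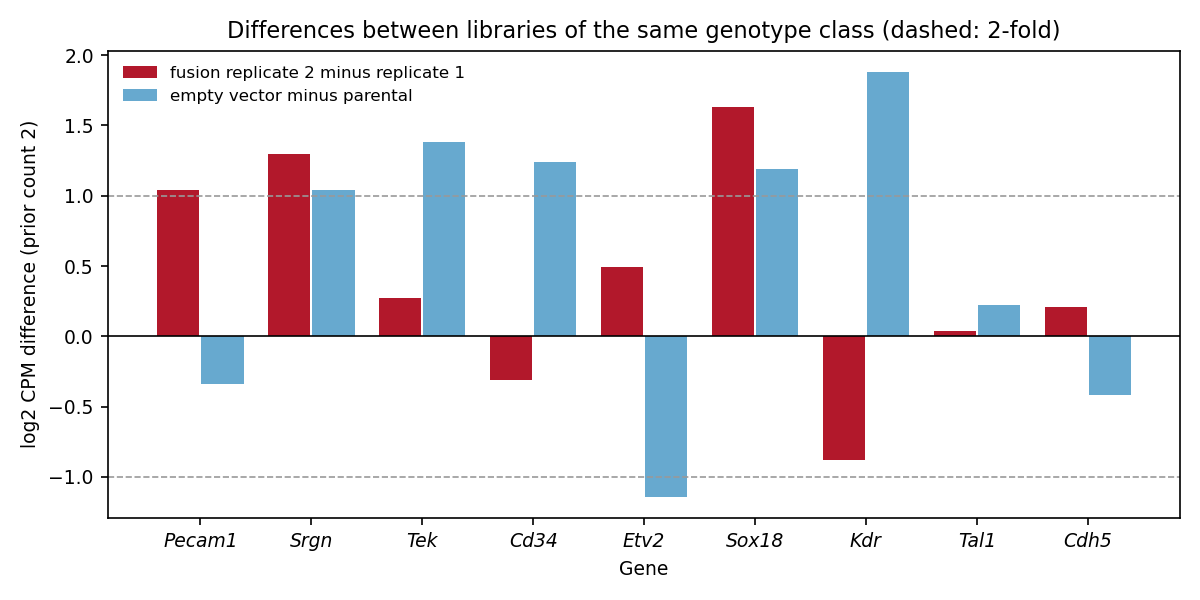
Log2 CPM differences (prior count 2) between the fusion libraries (replicate 2 minus replicate 1, red) and between the control libraries (empty vector minus parental, blue) for each of the 9 genes; dashed lines mark 2-fold. Kdr shows the largest control difference of the 9, at 1.88, and Sox18 the largest between fusion libraries, at 1.63.

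By level per length, the order in fusion cells was Pecam1 (43.1 ± 22 TPM), Srgn (34.5 ± 20), Cd34 (3.81 ± 0.523), Tek (1.96 ± 0.29), Sox18 (1.41 ± 1.12), Etv2 (1.25 ± 0.361), Kdr (0.52 ± 0.198), Cdh5 (0.44 ± 0.0566) and Tal1 (0.16 ± 0.0283; SD, n = 2 each, in TPM). The ranges of Pecam1 and Srgn overlapped, as did those of Tek, Sox18 and Etv2 along the order, and those of Kdr and Cdh5. In wild-type cells the order was Pecam1 (33.5 ± 3.2 TPM), Tek (10.3 ± 6.48), Cd34 (4.33 ± 2.8), Etv2 (1.88 ± 0.99), Sox18 (1.54 ± 0.969), Tal1 (0.555 ± 0.191), Kdr (0.51 ± 0.453), Srgn (0.125 ± 0.177) and Cdh5 (0.03 ± 0.0141; SD, n = 2 each, in TPM). There only Pecam1 from Tek and Sox18 from Tal1 were neighbours whose ranges did not overlap. Averaged over the 4 libraries, 3 of the 9 genes (Kdr, Tal1 and Cdh5) lay under 1 TPM.

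Of 10 endothelial and 8 early blood markers, 9 and 7 averaged at least 1 CPM in fusion or wild-type cells. The exceptions were Emcn, an endothelial surface mucin with 1 count in all 4 libraries together, and Lmo2, a factor of the TAL1 complex with 12 and 18 counts in the fusion libraries, against 9 in the parental and 10 in the empty-vector library. Some of the others were barely above 1 CPM. Cdh5 and Gata1 averaged 1.14 CPM each in fusion cells, and Etv2 and Tal1 averaged 1.34 and 1.42 CPM in wild-type cells, each less in the other group. Among 5 erythroid markers, the embryonic globins Hbb-bh1 and Hbb-y had 0 counts, and the adult globin Hba-a1 had 17 and 31 counts in the fusion libraries, against 17 in the parental and 20 in the empty-vector library. Emcn, Lmo2 and the globins were named after their values were seen. The 8 early blood markers summed to 21.5 and 29 CPM in the fusion libraries, against 13.2 CPM in the parental and 18.9 CPM in the empty-vector library. The 10 endothelial markers summed to 92 and 163 CPM in the fusion libraries, against 130 CPM in the parental and 147 CPM in the empty-vector library. Pecam1 alone made up 63% and 72.8% of the fusion sums, against 63.3% of the parental and 44.4% of the empty-vector sum. The 6 embryonic stem cell markers, Pou5f1 and Sox2 among them, summed to 3888 and 3347 CPM in the fusion libraries, against 3097 CPM in the parental and 3388 CPM in the empty-vector library. None of the 6 passed (edgeR), and they differed in direction. Nanog and Klf4 had log2 fold changes of 1.11 (SE 0.28) and 1.4 (SE 0.32). Those of Sox2, Zfp42, Pou5f1 and Esrrb were -0.34 (SE 0.2), -0.26 (SE 0.17), -0.08 (SE 0.17) and 0.02 (SE 0.17). Of 10 markers of parietal and primitive endoderm, 7 rose, where 2.83% of all genes tested did. Gata6, Sox7 and Sox17 are among the 7 and had enough counts to be tested only in fusion cells. The 10 summed to 1304 and 1053 CPM in the fusion libraries, against 428 CPM in the parental and 345 CPM in the empty-vector library. The sum was lower in fusion replicate 2 than in replicate 1, but its members differed. Gata6 (20.7 and 26 CPM in replicates 1 and 2), Dab2 (34.3 and 62.2 CPM), Lamb1 and Thbd were higher in replicate 2. Sparc (418 and 305 CPM), Col4a1 (384 and 307 CPM), Krt8, Sox7, Gata4 and Sox17 were lower in replicate 2. Srgn was higher in replicate 2. The part of these markers in the values of Srgn and Cdh5 was not tested. In bulk libraries, fewer cells of a type and less RNA per cell cannot be told apart.

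Among 112 tested genes of 8 related lists, the 9 genes left out, 8 rose (7.14%) and 1 fell (0.893%), where 2.83% of all genes tested rose and 0.581% fell. Their median log2 fold change was 0.48, against 0.0 for all genes tested. The lists were chosen with earlier results of these data known, so these shares and medians are a description. Sox7 and Sox17, among those that rose, had enough counts to be tested only in fusion cells. In wild-type cells 92 of the 112 averaged at least 1 CPM; the rest were too low to fall far. Of 21 tested vascular receptors and ligands, Vegfa alone passed, and it was higher. Of the 21, 9 had an unadjusted p under 0.05 (edgeR), where 3314 of all 16511 genes tested did. DESeq2 called 6 of the 25 listed, where it called 7.73% of all genes. Vegfa, the ligand of VEGFR2, stood at 89.1 and 110 CPM in the fusion libraries, against 34.6 CPM in the parental and 21.4 CPM in the empty-vector library (log2 1.83, SE 0.27, adjusted p = 0.0233, edgeR). Its adjusted p was 0.0669 without fusion replicate 1 and 0.0572 without fusion replicate 2. The receptors beside Kdr and Tek did not pass: Flt1, the other main VEGF-A receptor, had a log2 fold change of 0.91 (SE 0.53, adjusted p = 0.403, edgeR), and Tie1, the orphan partner of TIE2, one of 2.01 (SE 0.53, adjusted p = 0.091, edgeR). Tie1 lay at 2.11 and 1.96 CPM in the fusion libraries, against 0.365 CPM in the parental and 0.636 CPM in the empty-vector library, so that its values were higher in both fusion libraries while those of Tek were lower.

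Of 16 tested genes of the endothelial junction and surface, Jam2 alone passed, and it was higher. Of the 16, 5 had an unadjusted p under 0.05 (edgeR), where 3314 of all 16511 genes tested did. DESeq2 called 2 of the 25 listed, where it called 7.73% of all genes. Jam2, a junctional adhesion molecule, stood at 541 and 360 CPM in the fusion libraries, against 98.8 CPM in the parental and 167 CPM in the empty-vector library (log2 1.76, SE 0.31, adjusted p = 0.0346, edgeR). Its adjusted p was 0.141 without fusion replicate 1 and 0.0707 against the empty vector alone. F11r, a relative of Jam2, and Egfl7, a secreted endothelial factor, were the most abundant that did not pass, with log2 fold changes of 0.76 (SE 0.26) and -0.14 (SE 0.26).

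Sox7 and Sox17, the SoxF relatives of Sox18, were higher in fusion cells, but both had enough counts to be tested only in fusion cells and so had to be higher there. Sox7 stood at 19 and 11.4 CPM in the fusion libraries, against 0.26 CPM in the parental and 0.424 CPM in the empty-vector library (log2 5.45, SE 0.5, adjusted p = 0.00847, edgeR). Sox17 had 287 counts over the fusion libraries and 3 over the wild-type libraries, a ratio of 86.9 (95% exact binomial interval 29.4 to 424; adjusted p = 0.0153, edgeR, and 0.0537 without fusion replicate 1). Both are factors of endothelium and of extraembryonic endoderm, and both are among the 7 endoderm markers counted above. They were the 2 genes past the threshold of 17 tested vascular transcription factors, whose median log2 fold change was 1.03. Of the 17, 10 had an unadjusted p under 0.05 (edgeR), where 3314 of all 16511 genes tested did. DESeq2 called 5 of the 21 listed, where it called 7.73% of all genes. The ETS factor Erg had 33 counts over the fusion libraries and 5 over the wild-type libraries (log2 2.53, SE 0.64, adjusted p = 0.0836, edgeR). Erg too had enough counts to be tested only in fusion cells and so had to be higher there. Fli1 had 3 counts over the fusion libraries and 2 over the wild-type libraries and could not be tested.

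Kdr lies in a row of receptor tyrosine kinase genes on chromosome 5, 276105 bases from Kit, which lies 376701 bases from Pdgfra. Kit, the stem cell factor receptor of blood progenitors and germ cells, stood at 198 and 158 CPM in the fusion libraries, against 45.9 CPM in the parental and 53.6 CPM in the empty-vector library (log2 1.84, SE 0.2, adjusted p = 0.0102, edgeR). Pdgfra, a receptor of mesoderm and primitive endoderm, stood at 14.6 and 26.7 CPM in the fusion libraries, against 0.99 CPM in the parental and 1.22 CPM in the empty-vector library (log2 4.22, SE 0.43, adjusted p = 0.00863, edgeR). The values of Kdr, given above, did not pass. Whether its change differs from those of Kit and Pdgfra was not tested.

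**Figure D4:**
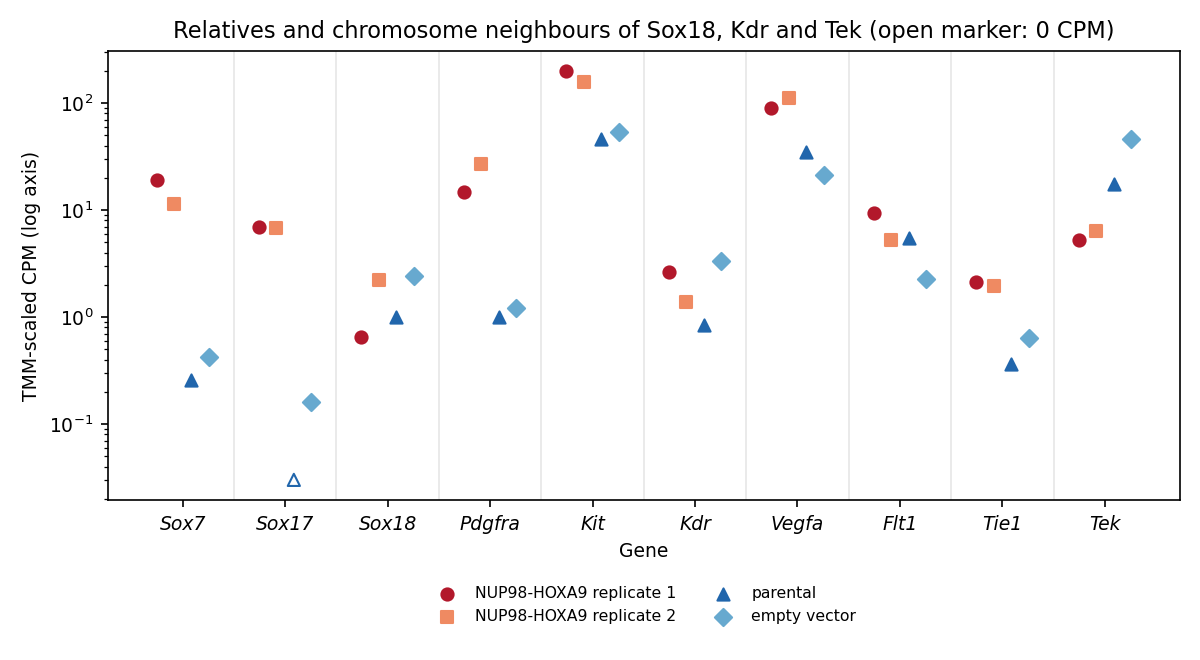
TMM-scaled CPM (log axis) in each library for the SoxF genes, the receptor genes of the Kdr locus, and Vegfa, Flt1, Tie1 and Tek; circles and squares are the fusion libraries, triangles the parental and diamonds the empty-vector library, and an open marker is 0 CPM. Sox7 and Sox17 are higher in both fusion libraries, Sox18 overlaps between the groups, and Kdr lies between the controls while Kit and Pdgfra lie above them.

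Of 17 tested blood transcription factors, Tcf12 passed as higher and Myb as lower. Of the 17, 9 had an unadjusted p under 0.05 (edgeR), where 3314 of all 16511 genes tested did. DESeq2 called 6 of the 24 listed, where it called 7.73% of all genes. The median log2 fold change of the 17 was 0.85. Tcf12, whose product HEB pairs with TAL1 on DNA, stood at 172 and 94.4 CPM in the fusion libraries, against 31.6 CPM in the parental and 32.6 CPM in the empty-vector library (log2 2.05, SE 0.3, adjusted p = 0.0218, edgeR). Its adjusted p was 0.0673 without the parental and 0.0657 without the empty-vector library. Tcf3, which encodes the other common TAL1 partner, had a log2 fold change of -0.34 (SE 0.17, adjusted p = 0.314, edgeR), and Ldb1, the bridging factor of the TAL1 complex, one of -0.5 (SE 0.17, adjusted p = 0.169, edgeR). Myb, a factor of blood progenitors, had a log2 fold change of -3.13 (SE 0.41, adjusted p = 0.0158, edgeR, and 0.054 without fusion replicate 1). Gata2 lay at 5.41 and 3.78 CPM in the fusion libraries, against 0.99 CPM in the parental and 1.01 CPM in the empty-vector library, and just missed the threshold (log2 2.2, SE 0.46, adjusted p = 0.0512, edgeR). Runx1, required for definitive blood, lay at 3.76 and 10 CPM in the fusion libraries, against 1.56 CPM in the parental and 0.69 CPM in the empty-vector library (log2 2.61, SE 0.65, adjusted p = 0.0792, edgeR). Gata1 had 48 counts over the fusion libraries and 24 over the wild-type libraries (adjusted p = 0.431, edgeR).

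Of 11 tested early blood surface and globin genes, Kit was the only one that passed. Of the 11, 4 had an unadjusted p under 0.05 (edgeR), where 3314 of all 16511 genes tested did. DESeq2 called 4 of the 18 listed, where it called 7.73% of all genes. The abundant members Cd9 and Thy1 had log2 fold changes of 0.39 (SE 0.21) and -0.12 (SE 0.4). Those of Ly6a, Prom1 and Spn were larger, at 2.91 (SE 0.79), -1.87 (SE 0.47) and -1.38 (SE 0.41). Ly6a, Prom1 and Spn were named after their values were seen. Of 12 tested mesoderm genes, Pdgfra and Gata4 passed, both higher. Of the 12, 7 had an unadjusted p under 0.05 (edgeR), and DESeq2 called 4 of the 17 listed. Gata4, a factor of heart mesoderm and endoderm, stood at 27.4 and 25.9 CPM in the fusion libraries, against 2.55 CPM in the parental and 1.33 CPM in the empty-vector library (log2 3.77, SE 0.38, adjusted p = 0.00851, edgeR). It is on the endoderm marker list too. Bmp4 and Snai1, the most abundant mesoderm genes that did not pass, had log2 fold changes of 0.59 (SE 0.23) and 1.64 (SE 0.37).

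**Figure D5:**
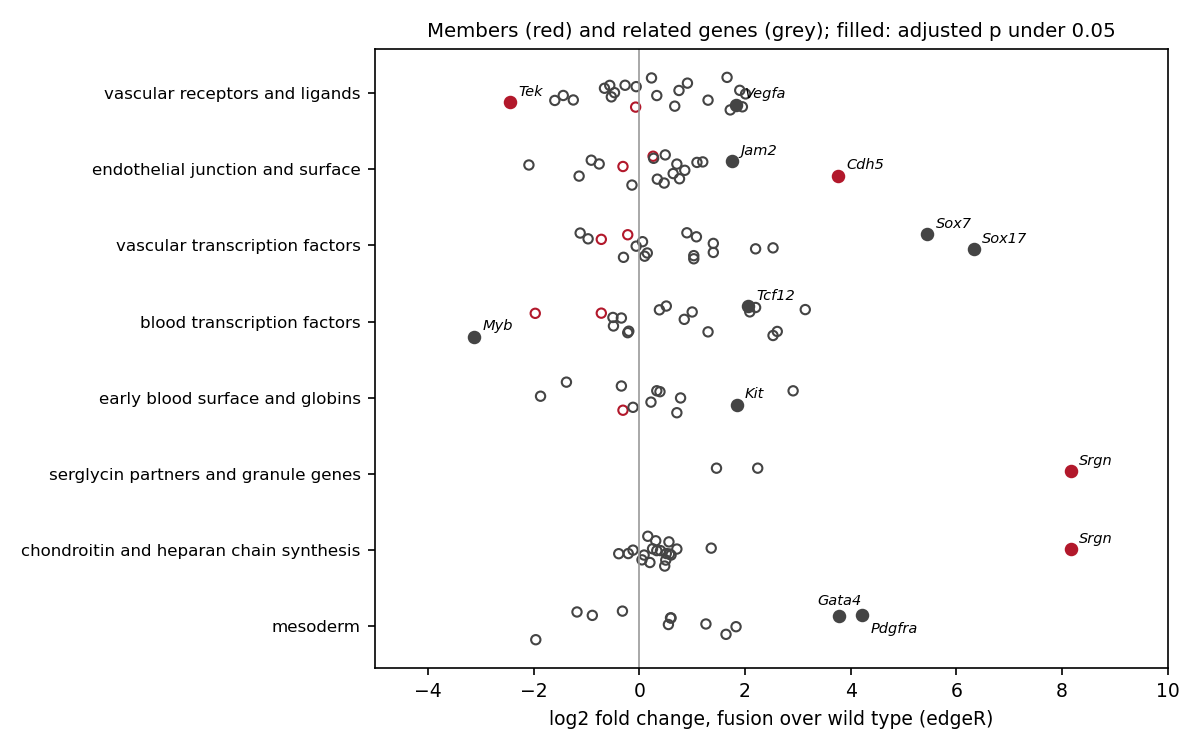
Fitted log2 fold changes, fusion over wild type, of the tested genes of 8 lists, with the 9 genes in red, the others in grey and genes past the threshold filled and named; a gene on several lists is drawn in each. Srgn at 8.17, fitted on 2 wild-type counts, and Sox17 at 6.33 lie farthest right, and Myb at -3.13 farthest left.

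For the 3 genes that passed, the nearest patterns across the 4 libraries were taken as the smallest Euclidean distance between centred log2 CPM values, over all tested genes with an official symbol. For Srgn these were Hoxa11os, Klb and Hoxa6, at distances of 1.32, 1.45 and 1.63. Like Srgn, they had enough counts to be tested only in fusion cells and so had to be higher there. Hoxa6 stood at 13 and 7.71 CPM in fusion replicates 1 and 2, against 9.72 and 24.1 CPM for Srgn. Klb, the beta-Klotho gene, had 269 counts over the fusion libraries and 2 over the wild-type libraries. For Cdh5 the nearest were Lrrc10b, Acp5 and Spesp1, at 0.19, 0.23 and 0.27. Lrrc10b and Spesp1, like Cdh5, had enough counts to be tested only in fusion cells. For Tek the nearest were Ctsw, Cftr and Wnt5a, at 0.38, 0.38 and 0.39. Cftr had enough counts to be tested only in wild-type cells and so had to be lower in fusion cells. Wnt5a, a secreted Wnt ligand, stood at 0.852 and 0.73 CPM in the fusion libraries. It stood at 2.34 CPM in the parental and 5.78 CPM in the empty-vector library. With 4 libraries, such likeness describes these samples only.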

How the data were processed

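The kit for sequencing selected mRNA and kept strand, per the labels' protocols. Each library has 1 deposited table with RSEM's expected counts, TPM, FPKM (not used here) and transcript lengths averaged by abundance, per the file headers. The submitters' processing notes name build GRCm38, the aligner STAR 2.7.10a, RSEM 1.3.3 and DESeq2 1.36.0. The annotation used for counting and whether strand was used: not given in the sources used here. Of 55401 identifiers, 55141 (99.5%) matched GENCODE vM21.

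The deposited expected counts, rounded, went through edgeR 4.0.16 under R 4.3.3 (TMM, filterByExpr at a minimum count of 10, robust quasi-likelihood fit, 2 residual degrees of freedom, common biological coefficient of variation 25.6%), fusion (n = 2) against wild type (n = 2). The SE is the log2 fold change over the root of the F statistic. Alternatives were other scalings, filters and controls, each library left out, DESeq2 1.42.0, and limma 3.58.1 on log2 of the deposited TPM plus 1 or 0.1, for genes at 1 TPM in 2 libraries or with no filter. Other steps used python 3.11.15 with pandas 2.3.3, ratio intervals were taken with scipy 1.17.1 and plots were drawn with matplotlib 3.10.9.

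The members and lists were chosen with earlier results of these data known. Beside the members, the rule named up to 4 genes per list past the threshold, the 2 most abundant that did not pass, a fixed set of vascular and blood genes, the nearest tested neighbours and the 3 nearest patterns of each member that passed.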

Additional observations from a re-analysis of the deposited data

How the results depend on the processing

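Over 15 alternatives, no call of a named gene changed direction. Srgn passed in 14, missing only in limma without a filter, but it was chosen by its rise in these same libraries. That count is therefore no independent evidence. Tek passed in 7 of 15 and Cdh5 in 5 of the 13 that gave it a value; Cdh5, Kdr and Tal1 are too low for the limma filter. Tek lost its call with library totals (adjusted p = 0.0561) and in all 3 limma fits (0.0876 to 0.255). The count of genes past the threshold, 564 with the settings used above, was 1946 without a filter, 1363 with DESeq2, 274 against the empty vector alone, 320 against the parental line alone, and 365, 273 and 5 in limma on TPM plus 1, on TPM plus 0.1 and without a filter; it ran from 163 to 552 with a library left out, the lowest without fusion replicate 1. The members past it, 3 with those settings, numbered 1 against the parental line alone, 1, 1 and 0 in the same limma fits, and 1 to 2 with a library left out. In the limma fit with 0, 3 members had an unadjusted p under 0.05. Of the listed genes, 9 passed with those settings, 32 without a filter, 27 with DESeq2, 0 in limma without a filter (46 with an unadjusted p under 0.05), and 5 to 13 with a library left out. The causes were not tested. No paired analysis was possible because the labels number only the fusion libraries. For Cdh5, Tal1, Etv2 and Kdr, with 1 to 63 counts a library, depth limits what can be seen.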
